A study of Mus musculus with 8 samples.

Results

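Loss of Ing1 on top of loss of Gadd45a was examined in mouse embryonic fibroblasts by setting 2 arrays of double knockout (DKO) cells against 2 arrays of Gadd45a-/- cells. These are 4 of the 8 arrays of the study, the others being 2 of wild-type (WT) and 2 of Ing1-/- cells. Both groups compared lacked Gadd45a by genotype, and the DKO cells lacked Ing1 as well. All cells came from male C57BL/6 embryos at E15.5 and were collected confluent at passage 3. The design describes duplicate collections per fibroblast line, so line and genotype cannot be told apart, and p-values measure only the spread between arrays, which may be technical. A probe was kept when its detection p was under 0.01 on both arrays of either genotype, which left 14412 of 45281 probes (31.8%) for 8476 named genes. Of these probes, 13360 were above background on all 4 arrays, 454 passed through DKO alone and 598 through Gadd45a-/- alone.

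Ing1 is a PHD-finger protein of the inhibitor of growth family that binds histone H3 trimethylated at lysine 4 and works with the Sin3 histone deacetylase complex. Gadd45a is a small stress-induced protein that acts as an adapter in DNA repair and in DNA demethylation, and ING1 has been described as directing it to chromatin that carries this histone mark. In fibroblasts both proteins are known for growth control linked to p53.

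The largest differences were seen at few genes. Probes for the ribosome assembly factor Mak16 and the fucosyltransferase Fut10 fell, together with macrophage genes led by Fcrls and the complement subunit gene C1qb. Probes for the Golgi and lysosomal nucleotidase Entpd4, the mitochondrial iron importer Slc25a37, the matrix metalloproteinase Mmp3 and the LIM-homeodomain factor Isl1 rose. In limma's fit over all 8 arrays, 74 of 14412 probes passed an adjusted p of 0.05 (0.513%), 29 higher in DKO (0.201%) and 45 lower (0.312%). They represented 63 named genes, 24 of which rose and 39 fell, and 6 probes without a gene name. All values below are log2 normalized intensities, and differences are DKO minus Gadd45a-/- with the standard error of the fit. The median difference of all kept probes was -0.01. The count rested on each of the 4 arrays: it was 5 and 6 without Gadd45a-/- replicates 1 and 2, and 5 and 4 without DKO replicates 1 and 2. The count also fell without either Ing1-/- replicate, and these arrays enter through the shared normalization and the shared estimate of spread. The called probes were picked on these same arrays, which favours an unchanged direction under the alternatives. Of the 68 called probes with a gene name, 3 stayed called whichever array was left out (Mak16, Entpd4 and Slc25a37), and 68 kept their direction under every alternative tried.

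**Figure D1:**
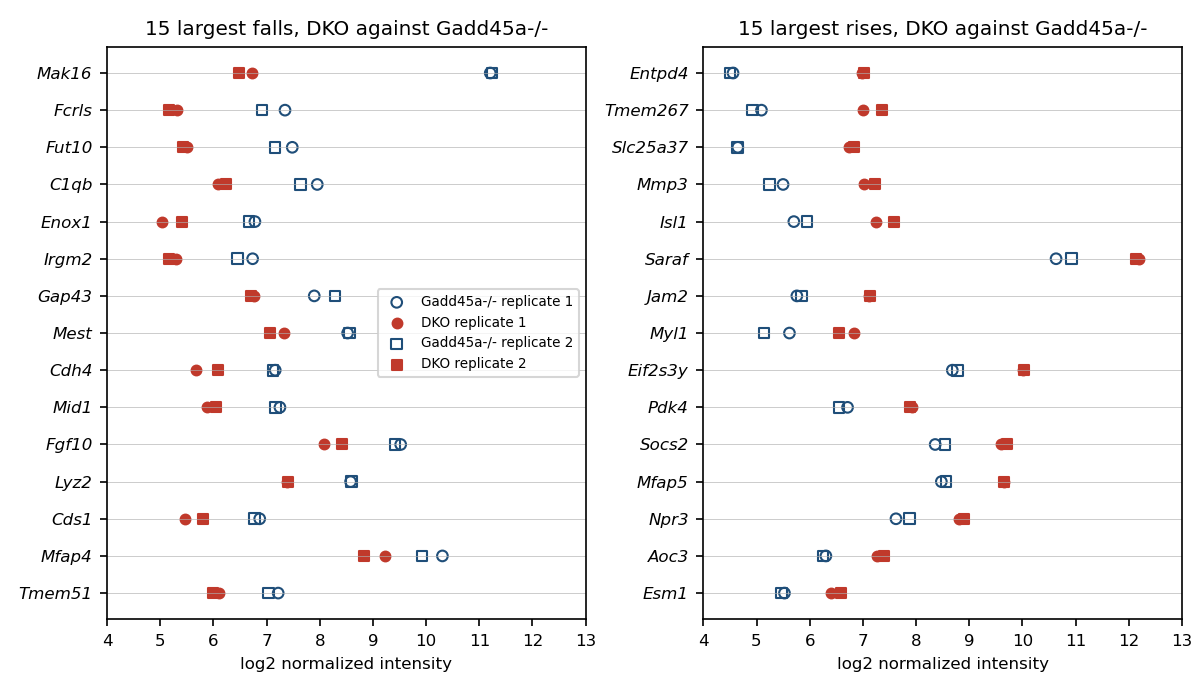
Log2 normalized intensity (x axis) of the 15 genes with the largest falls and the 15 with the largest rises by fitted log2 difference, 1 probe a gene. Open blue symbols are the 2 Gadd45a-/- arrays and filled red symbols the 2 DKO arrays; the groups do not overlap for any gene shown, which the choice of genes fixed, and Mak16 stands apart with 11.21 and 11.24 against 6.72 and 6.49.

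The 4 arrays were alike in the number of probes detected, while replicates lay closer together in DKO than in Gadd45a-/-. Before normalization, total intensity ran from 24233954 (DKO replicate 1) to 31688085 (Gadd45a-/- replicate 1). Between 14277 and 14778 probes were detected on each of the 8 arrays. Replicates correlated at 0.991 (Gadd45a-/-) and 0.994 (DKO) across kept probes, and arrays of the 2 genotypes at 0.987 to 0.990. The median SD between replicates was 0.113 for Gadd45a-/- and 0.0870 for DKO. The knocked-out genes gave a poor check of the labels. The single Ing1 probe was not above background on any of the 8 arrays, so it checks nothing. The first Gadd45a probe read 11.80 and 11.83 in Gadd45a-/- and 11.80 and 11.69 in DKO, against 10.93 and 10.71 in WT. The second read 10.83 and 11.00 in Gadd45a-/- and 11.08 and 10.78 in DKO, against 9.70 and 9.54 in WT. Neither probe differed between DKO and Gadd45a-/- beyond the spread (-0.08 and 0.02, adjusted p = 0.863 and 0.977), and both read higher than in WT, without overlap, in the libraries labelled Gadd45a-/- and DKO. Whether these probes lie in the deleted part was not analysed here, so directions that rest on the Gadd45a label carry this limit. Of 16 fibroblast markers on the array 14 were measured. The summed linear intensity of all 16, kept or not, was 134135 to 142304 in Gadd45a-/- and 134104 to 137199 in DKO. Dcn was the 1 member called, lower in DKO, beside 0.401% of all named genes called lower.

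The promoters of 4 genes whose levels differed are shown because the CpG content of a start region bears on DNA methylation. Each is 300 bases around the start site from RefSeq on GRCm38.p6, 5′ to 3′, with CpG dinucleotides in capitals. The 2 genes that fell are C1qb (chr4:136886151-136886450, minus strand) and Mest (chr6:30737800-30738099, plus strand), and the 2 that rose are Isl1 (chr13:116309639-116309938, minus strand) and Tmem267 (chr13:119488223-119488522, plus strand).
C1qb: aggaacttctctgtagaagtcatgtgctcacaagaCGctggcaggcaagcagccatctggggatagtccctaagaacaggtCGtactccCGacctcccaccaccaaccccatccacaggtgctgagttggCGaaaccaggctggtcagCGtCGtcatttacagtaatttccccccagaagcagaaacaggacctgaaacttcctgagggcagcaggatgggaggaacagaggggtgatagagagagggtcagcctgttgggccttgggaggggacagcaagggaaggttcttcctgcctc
Mest: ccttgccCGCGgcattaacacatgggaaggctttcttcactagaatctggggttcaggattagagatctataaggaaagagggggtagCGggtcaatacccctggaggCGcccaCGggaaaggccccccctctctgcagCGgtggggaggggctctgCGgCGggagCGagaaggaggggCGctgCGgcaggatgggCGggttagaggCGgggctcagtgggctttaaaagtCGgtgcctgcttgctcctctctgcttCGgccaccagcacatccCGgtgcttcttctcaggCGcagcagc
Isl1: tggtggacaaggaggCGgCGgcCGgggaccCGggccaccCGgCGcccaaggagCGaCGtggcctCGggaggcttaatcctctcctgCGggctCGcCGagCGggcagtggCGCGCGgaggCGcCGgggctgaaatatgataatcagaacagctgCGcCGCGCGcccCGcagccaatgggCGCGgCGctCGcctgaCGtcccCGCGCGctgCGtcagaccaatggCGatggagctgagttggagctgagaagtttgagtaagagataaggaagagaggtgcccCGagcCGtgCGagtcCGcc
Tmem267: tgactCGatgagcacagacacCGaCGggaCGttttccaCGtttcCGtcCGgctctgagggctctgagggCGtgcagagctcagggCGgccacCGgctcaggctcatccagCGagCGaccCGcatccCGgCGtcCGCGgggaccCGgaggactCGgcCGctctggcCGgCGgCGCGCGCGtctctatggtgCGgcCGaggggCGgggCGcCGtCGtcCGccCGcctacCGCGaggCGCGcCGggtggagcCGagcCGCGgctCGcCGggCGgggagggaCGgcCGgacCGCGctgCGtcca
These windows hold 6, 17, 37 and 50 CpG dinucleotides. The 2 shown for genes that rose lie well above the median of genes that rose, given below, so these 4 windows do not stand for the called genes. Mest has 3 windows and Tmem267 has 2, of which 1 each is shown. The others hold 8 and 17 for Mest and 22 for Tmem267. A gene with several windows counts below by their mean. Across called genes the windows were CpG-poor: the median was 9.0 for the 41 of 63 called genes with a window, against 21.5 for the 6924 of 8476 measured genes with a window. Genes that rose had a median of 6.75 (14 of 24) and genes that fell 9.0 (27 of 39). Windows with fewer than 10 CpG made up 56.1% of called and 11.4% of measured genes, and 14.3% of measured genes no brighter than the upper quartile of called genes.

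Mak16 showed the largest fall of a named gene. Mak16 is needed to assemble the large ribosomal subunit. Its probe read 11.21 and 11.24 in Gadd45a-/- and 6.72 and 6.49 in DKO, a difference of -4.61 ± 0.26 or 24.5-fold (limma, adjusted p = 0.000481). The other 2 Mak16 probes were bright and close in both genotypes, with differences of -0.20 and -0.02 that did not pass (adjusted p = 0.757 and 0.964). The fall was thus seen at 1 of 3 probes of the gene. Its neighbour Fut10, a fucosyltransferase, fell at 3 of 4 measured probes. The first Fut10 probe read 7.48 and 7.16 in Gadd45a-/- and was not above background in DKO, at 5.50 and 5.43, at least 2.60-fold lower (limma, adjusted p = 0.00507). At least N-fold here and below sets the brighter genotype against the lowest signal above background, where the dimmer genotype was below it on both arrays. The second read 8.92 and 8.86 against 7.38 and 7.40 (-1.50 ± 0.12, limma adjusted p = 0.00433), and the third differed by -1.19 ± 0.15 (limma adjusted p = 0.0267). The fourth Fut10 probe, near background, differed by -0.34 and did not pass.

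Mak16 and Fut10 lie 18.6 kb apart on the chromosome of Ing1, 19.6 Mb from it in the GRCm38.p6 annotation. Within 25 Mb of Ing1, 7 of 143 kept probes were called (4.9%, against 0.513% of all kept probes), and within 25 Mb of Gadd45a, which both genotypes lack, 0 of 250 were. By the brightest kept probe of each gene, 1 of 97 measured genes within 25 Mb of Ing1 rose (Rbpms) and 1 fell (Fut10). Over all named genes, 0.224% were called higher and 0.401% lower. All 7 called probes near Ing1 belonged to 5 genes between 19.6 and 24.0 Mb from it. Beside Mak16 and Fut10 these were Rbpms, an RNA-binding protein, Saraf, an inhibitor of store-operated calcium entry, and Mfhas1. Rbpms read 9.83 and 9.58 in Gadd45a-/- and 10.46 and 10.68 in DKO (0.87 ± 0.14, limma adjusted p = 0.0487), and its other 3 kept probes differed by 0.15 to 0.91 without passing. Saraf rose at 1 probe, from 10.63 and 10.92 to 12.18 and 12.14 (1.39 ± 0.13, limma adjusted p = 0.00886), while its other 2 probes differed by -0.76 and -0.93 and did not pass. The Saraf probes thus disagreed in sign. 1 Mfhas1 probe was not above background in DKO and was at least 1.11-fold lower (limma, adjusted p = 0.0375). The other kept Mfhas1 probe, detected in both genotypes, differed by -0.53 and did not pass (adjusted p = 0.217). The part of the linked chromosome segment in these differences was not tested.

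**Figure D2:**
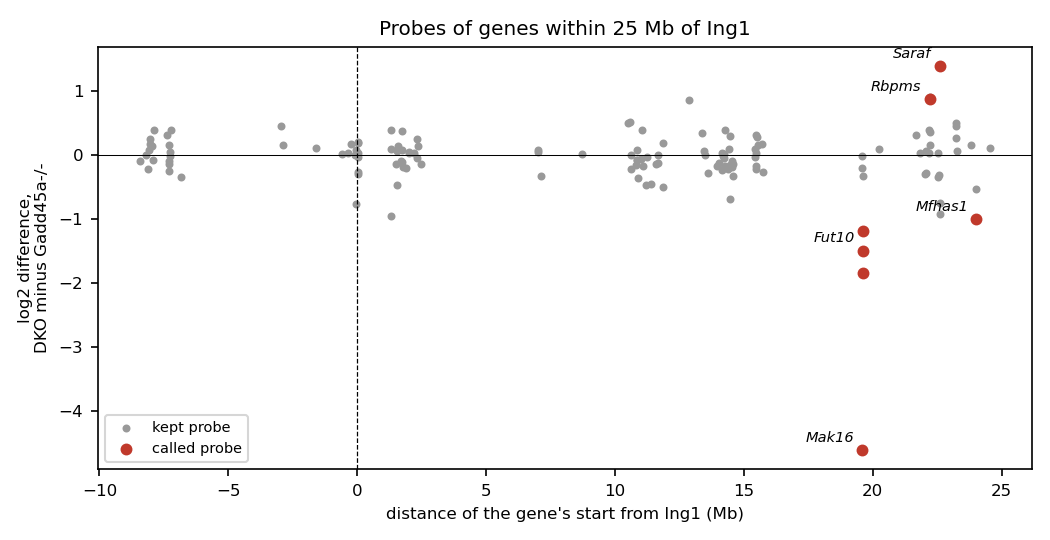
Log2 difference, DKO minus Gadd45a-/- (y axis), of the 143 kept probes of genes within 25 Mb of Ing1, against distance from Ing1 in Mb (x axis, dashed line at Ing1). Grey points are kept probes and red points the 7 called probes, which lie between 19.6 and 24.0 Mb away.

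By fitted log2 difference, Entpd4 and Slc25a37 showed 2 of the 3 largest rises of a named gene. Signals not above background enter these differences, so the order is not settled. The 2 genes are neighbours 51.6 kb apart on chromosome 14. The Entpd4 probe was not above background in Gadd45a-/-, at 4.56 and 4.50, and read 6.98 and 7.02 in DKO, at least 2.15-fold higher (limma, adjusted p = 0.000176). The brightest Entpd4 probe differed by 0.44 (adjusted p = 0.353), and the remaining 3 were not kept. The Slc25a37 probe likewise was not above background in Gadd45a-/-, at 4.65 and 4.64, against 6.74 and 6.83 in DKO, at least 1.85-fold higher (limma, adjusted p = 0.000312), while its second probe differed by 0.11 (adjusted p = 0.902). For both genes the rise was therefore seen at 1 probe and not at the brightest one.

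Mmp3, stromelysin-1, which degrades matrix proteins, was called at all 3 of its probes and was not above background in Gadd45a-/- at any of them. All 3 were kept through DKO alone, so the filter favoured them to be brighter in DKO. The first probe read 5.50 and 5.24 against 7.02 and 7.23, at least 2.35-fold higher (limma, adjusted p = 0.0254), and the other 2 were at least 1.94-fold and 1.30-fold higher. The adhesion protein gene Jam2 read 5.76 and 5.85 in Gadd45a-/- and 7.11 and 7.13 in DKO, at least 2.34-fold higher (limma, adjusted p = 0.012). The microfibril protein gene Mfap5 read 8.47 and 8.56 against 9.65 and 9.66 (1.14 ± 0.10, limma adjusted p = 0.00796). The natriuretic peptide clearance receptor Npr3 read 7.62 and 7.88 against 8.80 and 8.91 (1.10 ± 0.12, limma adjusted p = 0.018), with its other 3 kept probes between 0.86 and 1.45 and not called. The amine oxidase Aoc3 rose by 1.05 ± 0.13, and Esm1, which encodes the proteoglycan endocan, was at least 1.52-fold higher. The called probes of Entpd4, Slc25a37, Jam2, Esm1, Isl1 and Tmem267 were also kept through DKO alone.

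Mmp3 is a textbook target of the AP-1 transcription factor, and its start region (chr9:7445572-7445871, plus strand) is shown with the AP-1 letters TGANTCA in capitals.
Mmp3: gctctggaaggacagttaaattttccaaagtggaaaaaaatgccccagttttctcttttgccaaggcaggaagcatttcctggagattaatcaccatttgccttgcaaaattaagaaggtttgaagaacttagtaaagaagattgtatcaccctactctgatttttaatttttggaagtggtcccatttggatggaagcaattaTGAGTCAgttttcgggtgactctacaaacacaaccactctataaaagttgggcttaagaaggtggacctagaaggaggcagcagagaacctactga
The match lies 46 bases before the start. The same letters occur, on either strand, in 7.81% of 32851 windows of this length.

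Isl1, a LIM-homeodomain factor of motor neurons and heart progenitors, read 5.70 and 5.95 in Gadd45a-/-, above background on 1 of the 2 arrays, and 7.25 and 7.59 in DKO (1.59 ± 0.16, 3.02-fold, limma adjusted p = 0.00998). Tmem267 was not above background in Gadd45a-/-, at 5.09 and 4.92, against 7.01 and 7.36, at least 2.44-fold higher (limma, adjusted p = 0.00473). Pdk4, which inhibits pyruvate dehydrogenase, read 6.71 and 6.55 against 7.93 and 7.89 (1.28 ± 0.12, limma adjusted p = 0.00886). Socs2, a cytokine signalling inhibitor, read 8.36 and 8.54 against 9.59 and 9.70 (1.20 ± 0.15, limma adjusted p = 0.0257). The Y-linked translation factor gene Eif2s3y read 8.68 and 8.78 against 10.01 and 10.03 (1.29 ± 0.19, limma adjusted p = 0.0404), although all embryos were labelled male. The fast muscle light chain gene Myl1 was at least 1.73-fold higher (limma, adjusted p = 0.0482).

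Macrophage and blood markers fell. Of 21 on the array 10 were measured, 4 of them through Gadd45a-/- alone, and 6 were called lower, beside 0.401% of all named genes. This list, like all lists here, was chosen with earlier results of these data known, so the count is no independent support. Members kept through Gadd45a-/- alone, Fcrls among the called ones, were favoured by the filter to be dimmer in DKO. The 6 above background on all 4 arrays had a median difference of -0.98, and their arrays did not overlap, as was so for 43.6% of all named genes in either direction. Of these 6, Coro1a was not called. C1qb, a chain of the complement initiator C1q, read 7.95 and 7.64 in Gadd45a-/- and 6.08 and 6.24 in DKO (-1.63 ± 0.17, 3.10-fold, limma adjusted p = 0.012). Fcrls, an Fc receptor-like gene of microglia, read 7.35 and 6.91 and then fell below background at 5.32 and 5.16, at least 2.28-fold lower (limma, adjusted p = 0.0235). The lysozyme gene Lyz2 read 8.58 and 8.60 against 7.38 and 7.40 (-1.20 ± 0.10, limma adjusted p = 0.00542), with a second probe at -0.65 that did not pass. Lyz1 (-0.998 ± 0.13) is nearly identical to Lyz2, so their probes may share signal. The Fc receptor gamma chain Fcer1g differed by -0.97 ± 0.15 and Laptm5, a lysosomal protein of blood cells, by -0.94 ± 0.11. Cx3cr1, the fractalkine receptor, chosen after its values were seen, was at least 1.76-fold lower (limma, adjusted p = 0.0274). C1qc (-1.43, adjusted p = 0.055), Cd52, Cd14 and Coro1a were lower without passing. The summed linear intensity of all 21 markers on the array, kept or not, was 4167 to 4311 in Gadd45a-/- and 2153 to 2291 in DKO. It was 2396 to 2575 in WT and 3193 to 3513 in Ing1-/-. Ptprc, Adgre1, Aif1 and Itgam, which define blood cells and macrophages, were among 9 markers not above background on any of the 4 arrays. Fewer macrophages and less RNA per cell cannot be told apart in such samples, and their part in other results was not tested.

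**Figure D3:**
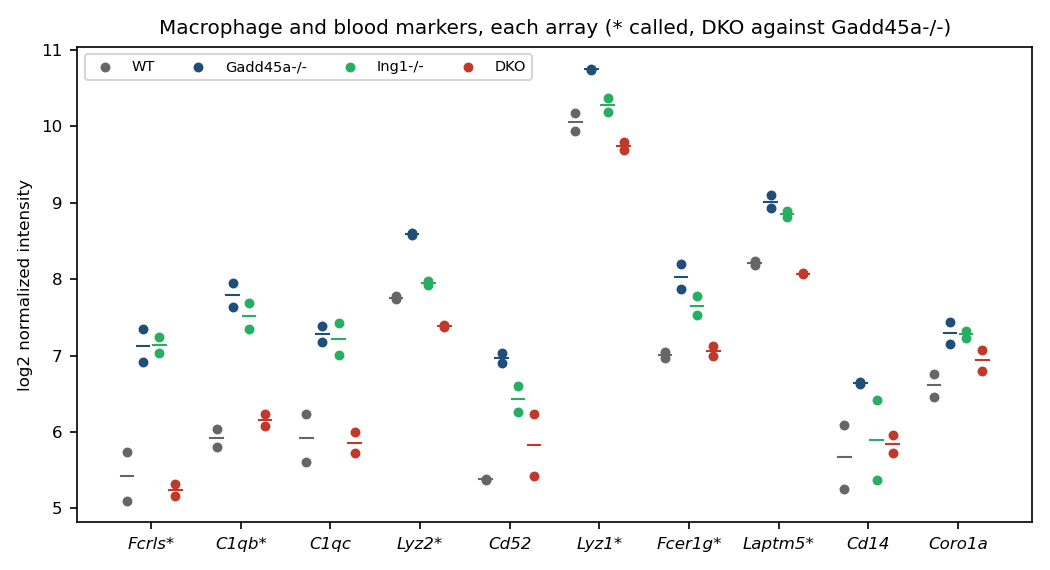
Log2 normalized intensity (y axis) of the 10 measured macrophage and blood markers on each of the 8 arrays, by genotype, with a short bar at each mean; an asterisk marks the 6 genes called in DKO against Gadd45a-/-. Gadd45a-/- arrays (blue) lie above DKO arrays (red) for all 10 genes.

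Of 9 measured neural and neural crest markers, 3 of them through Gadd45a-/- alone, 3 were called lower, beside 0.401% of all named genes. The growth-cone protein gene Gap43 read 7.90 and 8.29 in Gadd45a-/- and 6.77 and 6.70 in DKO (-1.36 ± 0.15, limma adjusted p = 0.0134). The glutamate transporter Slc1a3 (-0.84 ± 0.12) fell as well. The neurotrophin receptor Ngfr was called too (-0.94 ± 0.14), but was kept through Gadd45a-/- alone and was above background on 1 of 2 DKO arrays, while Sox10 was not called (-0.97, adjusted p = 0.215). Of 17 neural markers on the array, 7 were not above background on any of the 4 arrays, Sox2 and Tubb3 among them. Fgf10, a ligand that signals from mesenchyme to epithelium, read 9.52 and 9.42 against 8.09 and 8.42 (-1.21 ± 0.14, limma adjusted p = 0.018). A second Fgf10 probe fell by 0.88 ± 0.11, and the remaining kept one at -0.76 did not pass. The imprinted, paternally expressed Mest read 8.52 and 8.56 against 7.33 and 7.06 (-1.35 ± 0.14, limma adjusted p = 0.0117), and its other 2 probes differed by -0.97 and -0.67 without passing. The ubiquitin ligase gene Mid1 read 7.25 and 7.16 against 5.88 and 6.05 (-1.24 ± 0.15, limma adjusted p = 0.0235). It was above background on 1 of the 2 DKO arrays.

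Among small leucine-rich proteoglycans 5 were measured and 2 fell, beside 0.401% of all named genes. These were Prelp (-0.95 ± 0.15) and the collagen-binding Dcn, which read 10.84 and 10.60 against 9.88 and 9.87 (-0.85 ± 0.12, limma adjusted p = 0.0373); a second kept Dcn probe differed by -0.75 (adjusted p = 0.075). Of 15 microfibril genes, Mfap5 was called higher, beside 0.224% of named genes, and Mfap4 lower, beside 0.401%. Mfap4 fell from 10.31 and 9.92 to 9.22 and 8.84 (-1.09 ± 0.17, limma adjusted p = 0.0487). The cartilage collagen Col2a1 read 10.02 and 10.07 against 9.10 and 9.35 (-0.82 ± 0.13, limma adjusted p = 0.0463), with 2 further probes at -0.70 and -0.66 that did not pass. Of 12 measured imprinted genes 1 was called lower by its brightest probe (Dcn), beside the same 0.401%. Further falls among the largest were Enox1 (at least 1.72-fold), the adhesion protein Cdh4 (-1.26 ± 0.16, 1 of 2 DKO arrays above background), the lipid synthesis gene Cds1 (at least 1.84-fold) and Tmem51 (-1.08 ± 0.12).

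Irgm2, an interferon-induced GTPase, read 6.74 and 6.45 in Gadd45a-/- and was not above background in DKO, at 5.30 and 5.17, at least 1.57-fold lower (limma, adjusted p = 0.0249). Its start region (chr11:58214727-58215026, plus strand) is shown with the letters of the gamma-activated site, TTCNNNGAA, and the match to the interferon-stimulated response element in capitals.
Irgm2: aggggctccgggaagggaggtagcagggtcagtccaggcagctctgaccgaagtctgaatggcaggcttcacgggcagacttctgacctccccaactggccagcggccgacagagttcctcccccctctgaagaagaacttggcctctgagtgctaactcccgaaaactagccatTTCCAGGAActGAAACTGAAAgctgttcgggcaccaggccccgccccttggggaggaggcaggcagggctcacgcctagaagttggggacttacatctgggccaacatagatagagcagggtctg
The matches lie 75 and 64 bases before the start and do not overlap. On either strand these motifs occur in 8.30% and 3.44% of the 32851 windows. Beside 0.625% of all named genes, 0 of 17 measured interferon response genes were called, which is near that share for so small a list. The list does not hold Irgm2. The median of the 17 was -0.20, with 14 lower and 3 higher. Parp14 was the most different at -0.89 (adjusted p = 0.135) and Bst2 followed at -0.64 (adjusted p = 0.493).

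The lists closest to the functions of the deleted genes held no called member. Of 3 measured ING family genes, 12 of the Sin3 complex, 16 of DNA demethylation and methylation, 26 p53 targets and 15 of the CDK inhibitor and RB pathway, 0 were called, beside 0.625% of all named genes. For lists this small 0 calls lies near that share, so it does not set these lists apart from other genes. Their medians were -0.07, 0.07, -0.06, 0.03 and 0.06. The demethylation genes Tet1 and Tdg both differed by -0.31 (adjusted p = 0.567 and 0.685). The p53 targets Plk2 and Pmaip1 differed by 0.38 and 0.34 (adjusted p = 0.372 and 0.55). Across all kept probes 1486 had an unadjusted p under 0.05.

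Beside 0.625% of all named genes called, most other lists also held no call. These were the integrated stress response (32 measured, median -0.04), cholesterol and fatty acid synthesis (21, -0.17), collagens (16, 0.02), the contractile apparatus (31, 0.07), cell cycle (34, -0.08), the respiratory chain (24, 0.01), Hox genes (16, -0.17) and the IGF axis (13, -0.17). Here too 0 calls lies near that share for lists of these sizes. Il1rn, the interleukin-1 receptor antagonist, read 7.62 and 7.04 against 6.43 and 6.45 (-0.89, adjusted p = 0.109). Beside 0.224% of all named genes called higher, Myl1 was called among 8 measured skeletal muscle markers, and it passed through DKO alone. The 6 above background on all 4 arrays held no call and had a median of 0.26. Among 29 mesenchymal patterning factors Tbx4, a hindlimb T-box factor, was called at 0.83 ± 0.12 (limma, adjusted p = 0.0423), beside the same 0.224%.

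**Figure D4:**
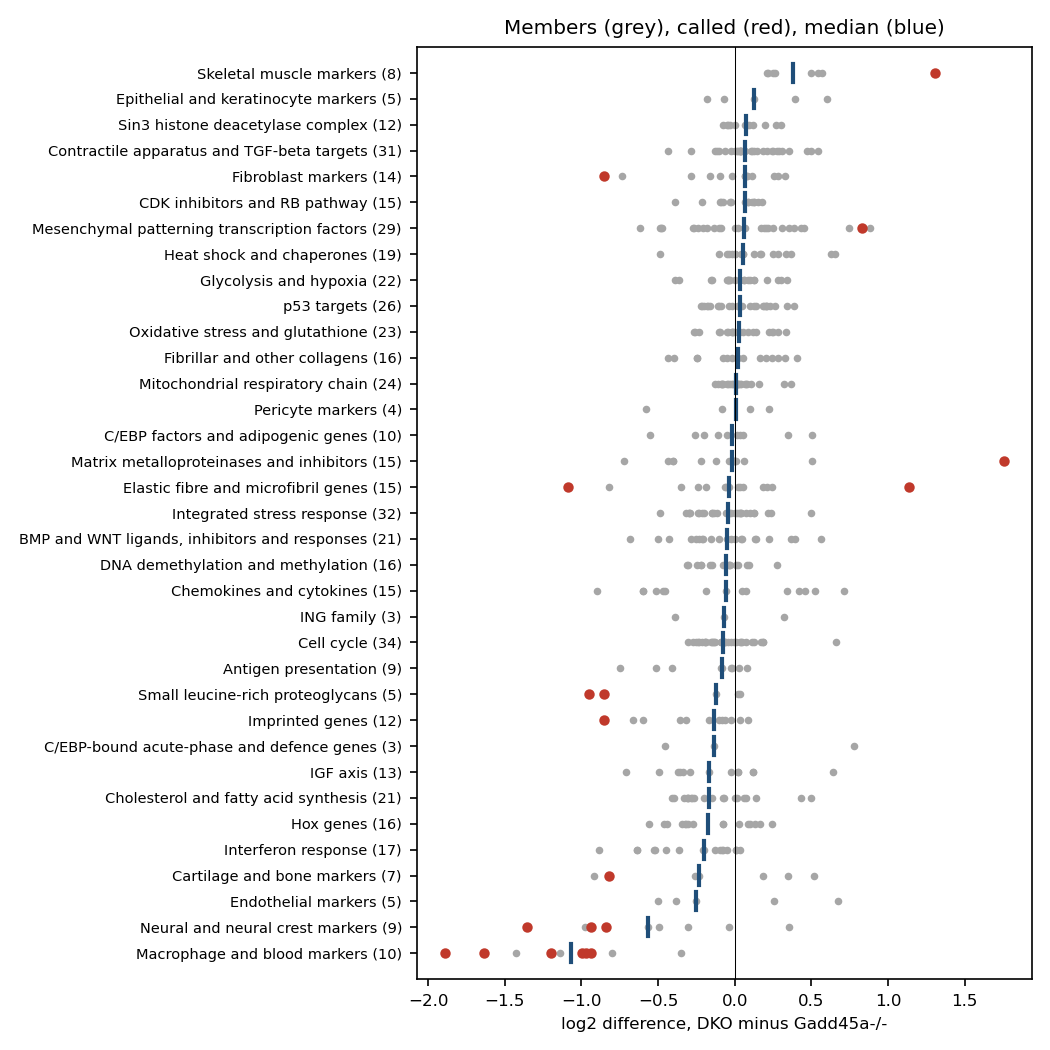
Log2 difference, DKO minus Gadd45a-/- (x axis), of the measured members of 35 gene lists, with the number measured in brackets and 1 probe a gene. Grey points are members, red points members called, and blue bars medians. The macrophage list lies lowest, with 6 of 10 called and 4 of the 10 kept through Gadd45a-/- alone. All lists were chosen with earlier results of these data known.

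The same loss of Ing1 was measured in cells that kept Gadd45a, as Ing1-/- minus WT, which shares no array with the comparison above. The 2 comparisons do share the normalization and 1 estimate of spread per probe, which favours probes of small spread to be called in both. There 66 probes were called (0.458%), and 11 were called in both with the same sign, 14.9% of the 74 and 16.7% of the 66. Leaving out 1 array at a time gave 6 to 27 calls in place of the 66. Of the 29 that rose, 26 (89.7%) had the same sign there, with a median of 1.14 against 0.50 in Ing1-/- minus WT. Of the 45 that fell, 28 (62.2%) had the same sign, with medians of -0.998 and -0.12. These probes were picked for their difference in DKO minus Gadd45a-/-, which favours larger medians there, so the medians do not compare the sizes of the 2 effects. Of all kept probes 51.4% had the same sign. Mak16 was called in both, at -4.61 and -5.34, with 1 of 2 Ing1-/- arrays above background. Entpd4, Slc25a37 and the first Fut10 probe were called in both too, each against a genotype not above background, so that they have bounds. In Ing1-/- against WT, Entpd4 was at least 2.52-fold and Slc25a37 at least 1.80-fold higher, and Fut10 at least 2.94-fold lower. Gap43 (-1.36 and -1.18) and Slc1a3 (-0.84 and -1.22) were called in both as well.

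The difference between these 2 Ing1 effects was tested in the same fit. It was called for 21 probes (0.146%), 2 higher (0.0139%) and 19 lower (0.132%). Of the 45 probes that fell 10 were among them, and of the 29 that rose 0 were. The 45 and 29 were picked on arrays that also enter this difference, which favours a call in the direction of the pick. Fcrls, C1qb, Cx3cr1 and Col2a1 were called in both comparisons with opposite sign. C1qb read 5.81 and 6.03 in WT, above background on 1 array, and 7.35 and 7.69 in Ing1-/- (1.60, limma adjusted p = 0.0128), so it was higher where Ing1 was lost with Gadd45a present and lower where Gadd45a was lost too. Col2a1 read 6.26 and 6.21 in WT and 7.45 and 7.60 in Ing1-/- (1.29, limma adjusted p = 0.00857). Without either Gadd45a-/- array, or without DKO replicate 1, the difference was called for 0 probes by limma, with 928 to 1518 at an unadjusted p under 0.05. Without Ing1-/- replicates 1 and 2 it was called for 1 and 3, without DKO replicate 2 for 3, and without WT replicate 2 for 6.

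**Figure D5:**
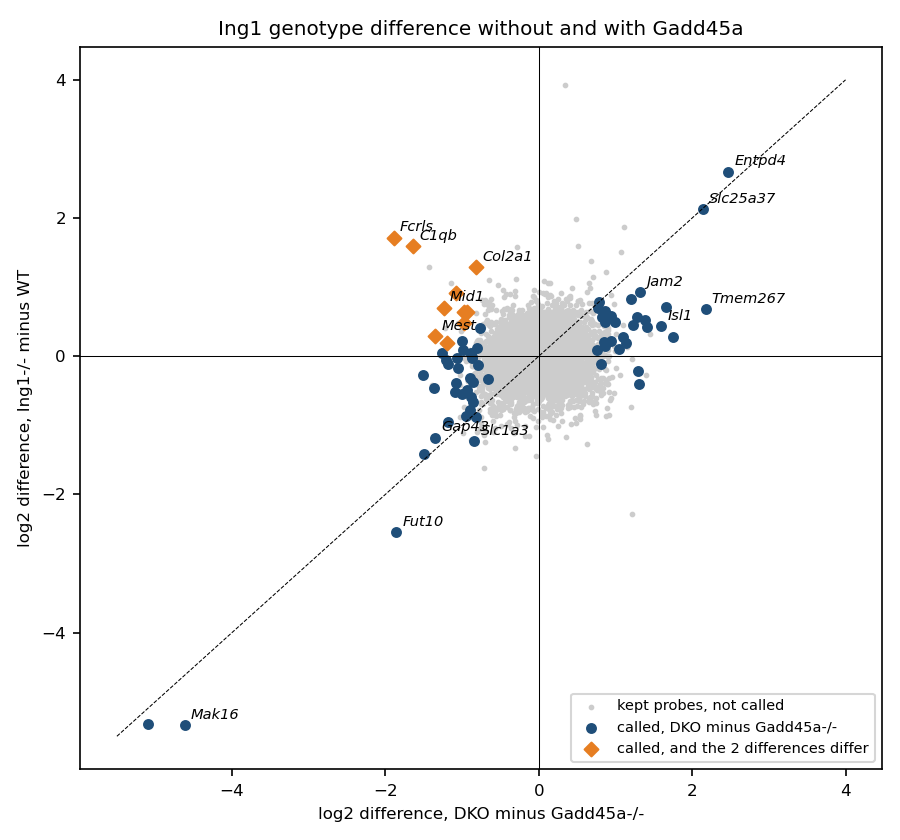
Log2 difference of Ing1-/- minus WT (y axis) against DKO minus Gadd45a-/- (x axis) for 14412 kept probes (grey); blue points are the called probes, orange diamonds those whose 2 differences also differ by test, and the dashed line marks equality. Mak16, Fut10, Entpd4 and Slc25a37 lie on the same side of 0 in both, and Fcrls, C1qb and Col2a1 lie on opposite sides of 0.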

How the data were processed

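RNA of 8 fibroblast samples, 2 for each of 4 genotypes, was measured on Illumina mouse bead arrays. The deposited table holds non-normalized average bead intensity and a detection p-value per probe and array, per the file headers. GenomeStudio 2011.1 is named in the submitters' processing notes; its settings are not given in the sources used here. The authors' deposited processed intensity table, whose scale is linear with 34.5% of values below 0 and whose method is unstated, served as an alternative; its array medians were 8.856 to 8.884 and its centring is unknown. Intensities were background-corrected with normexp from detection p-values, quantile normalized and log2 transformed with neqc (limma 3.58.1, R 4.3.3, offset 16). 1 mean per genotype was fitted over all 8 arrays with lmFit and eBayes (4 residual and 3.90 prior degrees of freedom), with Benjamini-Hochberg adjustment over 14412 probes and a threshold of 0.05. The fit was also run on simulated data with independent normal noise, without line effects or a background limit. The outcome of that run is not given here, and no result rests on it. Array number limits precision. Probes had 1 gene symbol (34885), several (18) or none (10378) in the platform annotation, with 34807 matched by identifier to RefSeq. The brightest kept probe stands for a gene in lists, and 861 of 862 listed names had a symbol. The genes named were the 2 deleted genes, the 15 largest rises and falls among called probes with non-overlapping arrays, up to 4 called members per list or up to 2 others, and 5 called genes within 25 Mb of Ing1. Members and lists were chosen with earlier results of these data known. Replicate numbers were checked for pairing: deviations of equal numbers correlated at -0.0955 to 0.288 across genotypes, so they were not taken to pair samples. Alternatives covered background correction, scaling, filters, variance models, thresholds and left-out arrays. Slide was not used as a block, since the files used here give none.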

Additional observations from a re-analysis of the deposited data

Results flagged for a closer look

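For 10 probes called in DKO against Gadd45a-/-, the effect of Ing1 loss differed between cells without and with Gadd45a by limma's test of the difference, with these differences between the 2 effects on the log2 scale. The macrophage and blood list held Fcrls at -3.61, C1qb at -3.23, Fcer1g at -1.62, Laptm5 at -1.58 and Lyz2 at -1.4. Cx3cr1, outside that list, stood at -1.99. The cartilage collagen Col2a1 stood at -2.11, the ubiquitin ligase gene Mid1 at -1.94 and the imprinted Mest at -1.64. The unnamed probe ILMN_3159435 stood at -1.46. Fcrls and Cx3cr1 were not above background in WT and DKO, nor Mid1 in WT, and C1qb was above it on 1 of 2 WT arrays, so these sizes are limited by the background and have no order. The 10 probes were picked on DKO and Gadd45a-/- arrays that also enter this difference, which favours a call. Groups of 2 arrays were too small for a check on single outlying samples.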

How the results depend on the processing

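For DKO against Gadd45a-/-, 74 probes were called, and the count left the range of 1.5 times at 36 with median scaling, 48 with the 4 arrays alone, 17 without a detection filter, 25 with probes detected on all 4 arrays, 35 at a detection p under 0.05, 12 and 132 at adjusted p under 0.01 and 0.1, and 39 with an absolute log2 difference over 1. Leaving out 1 array gave 4 to 93. Probes detected on all 4 arrays moved the share higher from 39.2% to 28.0%. For Ing1-/- minus WT (66) the count was 118 without background correction, 20 without a filter, 40 at a detection p under 0.05, 136 with trend and robust variances, 34 with array weights, 13 and 132 at adjusted p under 0.01 and 0.1, 34 with an absolute log2 difference over 1, and 6 to 27 with 1 array left out. For the difference of the 2 effects (21) it was 36 without background correction (9 higher and 27 lower, against 2 and 19), 6 without a filter, 37 with trend and robust variances (9 higher and 28 lower), 0 at adjusted p under 0.01 (1349 at an unadjusted p under 0.05), and 0 to 22 with 1 array left out. With replicate number as a block the counts were 59, 42 and 11; the numbers do not pair the samples. Directions reversed with 1 array left out for Idi1 (-0.046 without Gadd45a-/- replicate 1, range to 1.04) and for 1 Gadd45a probe (-0.067 without Gadd45a-/- replicate 1 and -0.13 without DKO replicate 1, range to 0.16), neither called. Where no cause is given, the cause was not tested. Slide as a block was not run. Probes near background limit what can be ordered.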

Other observations

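By fitted log2 difference, which uses signals not above background, the largest difference of any probe belonged to one without a gene name. ILMN_1219113 read 10.14 and 10.05 in Gadd45a-/- and was not above background in DKO, at 4.78 and 5.23, at least 17.8-fold lower (limma, adjusted p = 4.1e-05). It was not above background in Ing1-/- either, and was at least 18.4-fold lower there than in WT (limma, adjusted p = 2.91e-05).

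All 5 called probes on chromosome 13, of 468 kept there, lay in 6.40 Mb from Esm1 to Tmem267, where 20 probes were kept. They belonged to 4 of 15 measured genes: Esm1, Isl1 and Tmem267 were higher in DKO and Fgf10 lower. This stretch was chosen after its values were seen and was given no test.

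Called in the difference of the 2 Ing1 effects but not in DKO against Gadd45a-/- were, among others, Bmp4 (-0.29 in DKO minus Gadd45a-/-, adjusted p = 0.566), Mgp and Xlr4a. For Bmp4 the difference between the effects was -1.87, for the calcification inhibitor Mgp -1.55 and for Xlr4a 3.49, Xlr4a being not above background in Ing1-/-. These genes were chosen after their values were seen.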
